A study of Mus musculus with 24 samples.

Results

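The Clca family of chloride channel accessory genes was followed in whole mouse colon through the 9 probe sets annotated to Clca1, Clca2, Clca3a1, Clca3a2, Clca4a or Clca4b, out of 45137 probe sets on the Affymetrix 430A and 430B arrays. The family was selected on a measured value, the higher signal of Clca4b after TNBS on the standard diet, so that difference is described here without a test. BALB/c mice, an inbred laboratory strain, were 6 to 8 weeks old and formed 4 groups: curcumin diet with TNBS enema, standard diet with TNBS enema, curcumin diet with control enema, and standard diet with control enema. The diet, with 2% curcumin or without, began 2 days before the enema of day 0, and colons were taken on day 7. TNBS, trinitrobenzene sulfonic acid, is a hapten used to induce colitis, and curcumin is a polyphenol of turmeric. Every group has 3 samples, and each sample was hybridised to both array types, which gives 24 arrays. RNA was pooled from 3 mice. Whether a group's 3 samples come from different pools is not stated in the labels, so p-values measure only the spread between these samples, which may be technical. The labels also speak of littermates of a wild type, without naming another genotype.

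CLCA proteins are secreted or shed glycoproteins that cleave themselves with a metalloprotease domain of their own. They were first described as chloride channels, and CLCA1 is now known to modulate the calcium-activated chloride channel Ano1 from outside the cell. In the intestine the best known member is Clca1, formerly Clca3 or Gob-5, which goblet cells release into the mucus layer. Clca4a, formerly Clca6, belongs to enterocytes of the intestine, whereas Clca4b is known mainly as a mouse homolog of human CLCA4.

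The 6 genes lie in 1 block on chromosome 3. In the RefSeq order for GRCm38.p6 the block runs Clca3a1, Clca3a2, Clca3b, the pseudogene Clca4c-ps, Clca4b, Clca4a, Clca1 and Clca2. It holds 7 protein-coding genes, and 0 of them belong to another family. In the RefSeq promoter table, 4 of the 6 members were found, namely Clca2, Clca3a1, Clca3a2 and Clca4b. The promoter of Clca4b is shown because its signal moved most between groups, and those of Clca3a2 and Clca3b because they show how much sequence neighbours of the block can share. Only bases before the annotated start are given, 5′ to 3′ on the minus strand, for chr3:144932530-144932779 (Clca4b), chr3:144819495-144819594 (Clca3a2) and chr3:144849303-144849402 (Clca3b). Capitals mark a run of TATATATA in Clca4b and the run that Clca3a2 and Clca3b have in common.
Clca4b: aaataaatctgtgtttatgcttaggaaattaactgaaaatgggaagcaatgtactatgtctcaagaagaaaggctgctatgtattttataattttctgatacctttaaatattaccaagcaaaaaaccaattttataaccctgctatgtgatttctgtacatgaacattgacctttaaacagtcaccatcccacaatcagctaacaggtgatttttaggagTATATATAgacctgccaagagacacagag
Clca3a2: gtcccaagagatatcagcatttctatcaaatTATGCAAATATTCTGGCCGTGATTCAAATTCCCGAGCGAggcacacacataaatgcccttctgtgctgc
Clca3b: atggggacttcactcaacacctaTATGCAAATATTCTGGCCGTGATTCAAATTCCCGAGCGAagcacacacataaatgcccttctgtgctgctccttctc

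The capitals in Clca4b begin at base -29, counted back from the start. A run of TATATATA is held by 0.737% of the 32851 promoter windows of 250 bases, among them that of Clca3a1 at base -99. Clca4b also holds TATAAA, a motif found in 12.4% of the windows, on 1 strand or the other at bases -166 and -119. Clca3a2 and Clca3b share 39 bases in 1 unbroken run and have 74 of 100 bases in common when set 8 bases apart, whereas every other pair among Clca2, Clca3a1, Clca3a2, Clca3b and Clca4b shares at most 9 bases in a run. The shared run contains the AP-1 motif TGANTCA, at base -50 in Clca3a2 and at -58 in Clca3b, which 6.75% of the windows hold. In Clca3a2 the C/EBP motif TTGCNNAA, which 9.56% of the windows hold, begins at base -70 on the other strand and lies, but for its first base, in the shared run. It does not overlap the AP-1 match. The NF-kappaB motif GGGNNNNNCC, in 45.8% of the windows, matched in Clca3a1 at base -91 and in Clca3a2 at -105. The STAT motif TTCNNNGAA, in 7.02% of the windows, had no match in the 5 windows. For Clca4b the AP-1, C/EBP, NF-kappaB and STAT letters are not in the window on either strand.

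Signals are linear intensities that the authors had scaled to a common mean on each array. On 430B, the arrays of curcumin TNBS replicates 2 and 3 stood apart from the rest. Over all 430B probe sets their log2 signals correlated at a mean r of 0.848 with the other 10 arrays, against 0.923 among those 10 and 0.935 between the pair. Their highest signals were 48926.5 and 49799, against 64968.5 to 102645.9 on the other 430B arrays. Clca2, Clca4a, Clca4b and 1 probe set of Clca3a2 are on 430B, and the tested ones are therefore given with and without this pair where the group enters. The fit without the pair leaves 1 array in that group, which is assumed to vary like the other groups. On 430A, the first principal component, with 32% of the variance, parts the arrays into 2 sets, and every group has arrays in both. The labelled tissue is colon. All 6 goblet and all 8 colonocyte markers were measured, and 0 of them were at 0. The same held for every other marker list, so this does not check the label.

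Of the 9 member probe sets, 5 passed the filter on low signal, which keeps probe sets whose mean log2 signal is above the 40th percentile of their array type. They stand for 4 of the 6 genes, namely Clca1 (both probe sets), Clca3a1, Clca4a and Clca4b. The lowest of those kept was the second probe set of Clca1, 1459889_at, at percentile 49.5. The highest of those left out was Clca3a2 1419463_at at percentile 26.4, followed by Clca2 1438109_at at 24.1, Clca3a1 1417853_at at 21.5 and Clca3a2 1437578_at at 2.49. The probe sets left out were not tested and are described by their signals. Levels of different probe sets are not set against each other, since each has its own binding strength.

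**Figure D1:**
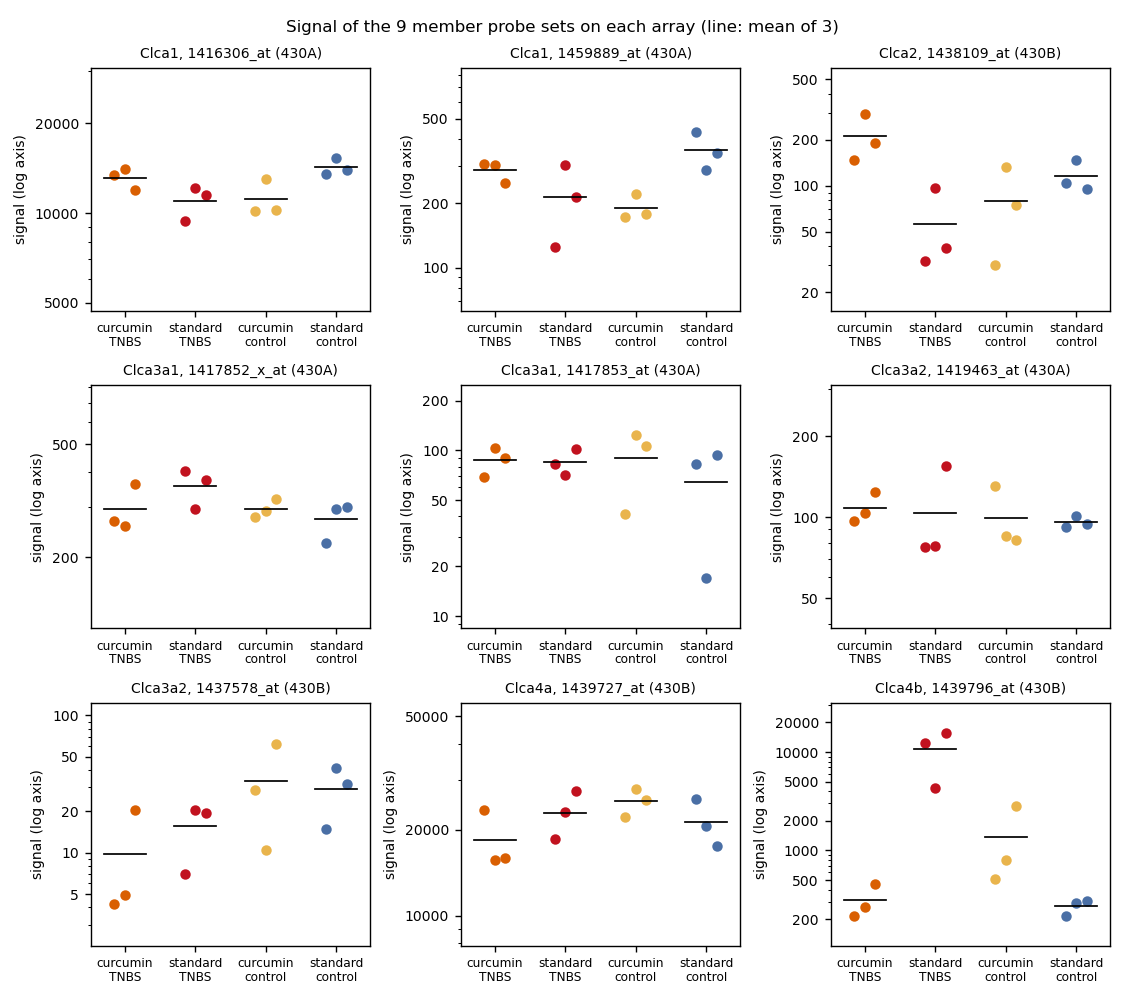
Signal of the 9 member probe sets on every array, 1 panel each with a log axis of its own, for curcumin TNBS, standard TNBS, curcumin control and standard control; points are arrays and lines are means of 3. In Clca4b the standard TNBS arrays lie between 4324 and 15797, above all others, while most panels show groups that overlap.

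Clca4b, probe set 1439796_at on 430B, was high in 1 of the 4 groups and intermediate in another. It gave 214.3, 268.5 and 458.6 in curcumin TNBS colons, 12339.8, 4324 and 15797 in standard TNBS colons, 510.1, 808.4 and 2830.0 in curcumin control colons, and 216.3, 290.6 and 304.3 in standard control colons. The standard TNBS arrays were above every other array, and the curcumin control arrays were above those of curcumin TNBS and standard control. The curcumin TNBS and standard control arrays overlapped. The group means were 313.8 ± 128 for curcumin TNBS, 10820.5 ± 5886 for standard TNBS, 1383 ± 1262 for curcumin control and 270.4 ± 47.4 for standard control (SD, n = 3 each). In order, standard TNBS came first and curcumin control second, and the lowest pair of groups did not differ beyond their spread. Within curcumin control the value of replicate 3 was far above those of replicates 1 and 2, and within standard TNBS replicate 2 was the lowest.

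On the standard diet, the Clca4b mean was 40.02 times as high with TNBS as with the control enema, and the fitted log2 difference was 5.06 ± 0.53 (SE). This is the difference on which the family was chosen, and nothing is read from it. In the same comparison Clca1 differed by -0.38 ± 0.13 in 1416306_at and by -0.74 ± 0.27 in 1459889_at, Clca3a1 by 0.37 ± 0.19 and Clca4a by 0.11 ± 0.22. Of the 27081 probe sets tested, 0.00739% passed an adjusted p of 0.05 in this comparison; the members' count there, 1 of 5, was set by the choice of the family. In whole tissue, more cells that carry a transcript and more transcript per cell cannot be told apart.

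On the curcumin diet, Clca4b was lower with TNBS than with the control enema with no overlap, as groups were in 13.7% of all tested probe sets. That share, like the others without overlap, pools both array types. The mean with TNBS was 0.227 times that with the control enema, and the log2 difference was -1.77 ± 0.53 with a 95% interval of -2.91 to -0.63. It did not pass in limma (adjusted p = 0.0941). Without the 2 arrays that stood apart it was -2.22 ± 0.76 (adjusted p = 0.909), and without curcumin control replicate 3 it was -1.07 ± 0.45 (adjusted p = 0.272). Without curcumin control replicate 1 it was -2.28 ± 0.54 and passed (adjusted p = 0.0496), as it did with array weights (-1.49 ± 0.50, adjusted p = 0.0458). Of the 5 tested member probe sets 0 passed in this comparison by limma, and over all probe sets tested 0.203% passed. At an unadjusted p under 0.05 there were 2 members, Clca4b and Clca4a, both on 430B, against 13.3% of all probe sets tested and 24% of those on 430B.

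With the control enema, Clca4b was higher on the curcumin than on the standard diet, with no overlap, as groups were in 8.32% of all tested probe sets. The mean on curcumin was 5.11 times that on the standard diet, and the log2 difference was 1.92 ± 0.53 with a 95% interval of 0.78 to 3.06. It did not pass in limma (adjusted p = 0.997). Without curcumin control replicate 3 it was 1.22 ± 0.45. The standard control arrays entered the difference that chose the family. The Clca4b values here, its place in the counts included, were therefore not independent of that choice. In this comparison limma called 0 of the 5 member probe sets, and 0.00369% of all probe sets tested. At an unadjusted p under 0.05 there were 3 member probe sets, namely Clca4b and both of Clca1, and 3.61% of all probe sets tested.

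With TNBS, the Clca4b mean on the curcumin diet was 0.0290 times that on the standard diet, and the log2 difference was -4.91 ± 0.53. The difference of the TNBS effect between diets, curcumin minus standard, was -6.83 ± 0.76. Both rest on the standard TNBS arrays that chose the family, the second also on the standard control arrays, and are given as values. Over all probe sets tested 0.805% passed between diets with TNBS and 0.0332% in the interaction; the members' count, 1 of 5 in each, is Clca4b and was not independent of the choice. Without the 2 arrays that stood apart the values were -5.36 ± 0.76 and -7.28 ± 0.93.

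**Figure D2:**
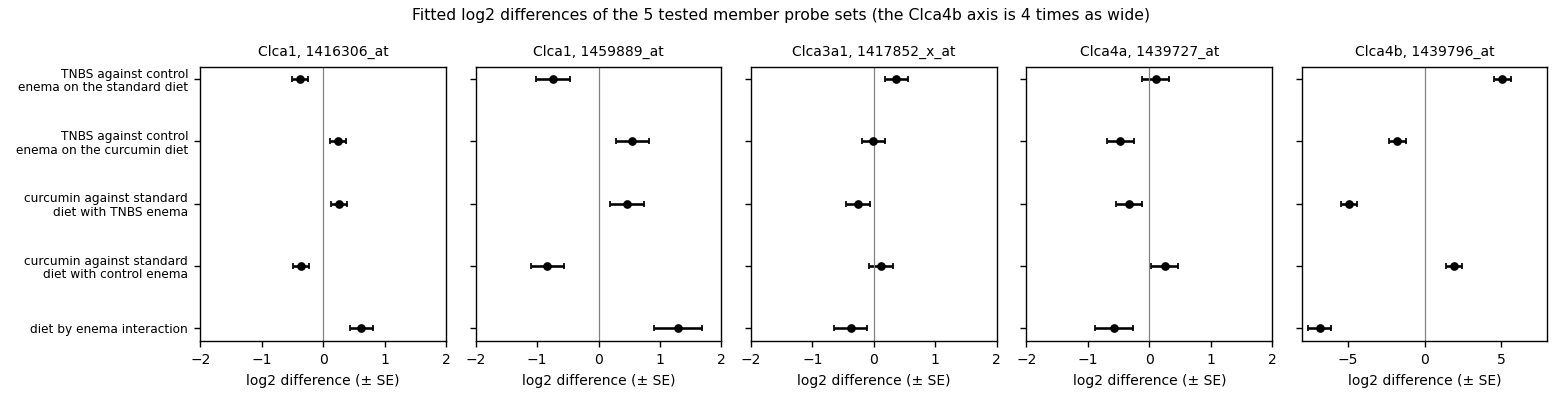
Fitted log2 differences (points) with standard errors (bars) for the 5 tested member probe sets in the 4 single-factor comparisons and the interaction; the horizontal axis of Clca4b is 4 times as wide as the others. Both probe sets of Clca1 lie on the same side of 0 in each comparison, and Clca4b runs from -6.83 to 5.06.

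Clca1, the secreted goblet cell member, was highest in standard control colons, and none of its differences passed the test in the fit of the report. Probe set 1416306_at on 430A gave 13407, 14097 and 11920.0 in curcumin TNBS colons, 9405, 12169.9 and 11473 in standard TNBS colons, 10163, 13033 and 10249 in curcumin control colons, and 13481, 15352.5 and 14003.5 in standard control colons. The standard control arrays were above all standard TNBS and all curcumin control arrays, and the other comparisons overlapped. Groups without overlap occurred in 14.5% of all tested probe sets between enemas on the standard diet. Means were 13141 ± 1112 for curcumin TNBS, 11016 ± 1438 for standard TNBS, 11148 ± 1633 for curcumin control and 14279 ± 966 for standard control (SD, n = 3 each). Probe set 1459889_at gave 306.0, 301.4 and 249.7 in curcumin TNBS colons, 125.3, 303.3 and 214.5 in standard TNBS colons, 171.9, 221.8 and 177.6 in curcumin control colons, and 431.8, 285.9 and 345.0 in standard control colons. The standard control mean was again the highest and the curcumin TNBS mean the next, while the lowest pair of groups changed places. The 2 probe sets correlated at r = 0.845 over the 12 arrays of 430A, which share their RNA.

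With the control enema, Clca1 was lower on the curcumin than on the standard diet in both probe sets with no overlap (8.32% of all tested probe sets), by -0.36 ± 0.13 and -0.83 ± 0.27 on the log2 scale. Neither passed (limma, adjusted p = 0.998 for both). With TNBS the differences between the diets were 0.26 ± 0.13 and 0.46 ± 0.27, and with TNBS against control enema on the curcumin diet they were 0.24 ± 0.13 and 0.55 ± 0.27, also not past the threshold. In 1459889_at the curcumin TNBS arrays were above all curcumin control arrays, a lack of overlap that 13.7% of all tested probe sets had. This share pools both array types. At an unadjusted p under 0.05 this comparison had 2.75% of the tested probe sets of 430A and 24% of those of 430B. The interaction of Clca1 was 0.62 ± 0.18 (adjusted p = 0.285) in 1416306_at and 1.29 ± 0.39 (adjusted p = 0.297) in 1459889_at. These comparisons share arrays, so their signs are not separate evidence. With array weights the first of these was 0.63 ± 0.16 and passed (adjusted p = 0.0437).

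Within the 2 sets of 430A arrays, each sign of Clca1 held. For 1416306_at the interaction was 0.99 in set 1 and 0.40 in set 2, and the diet difference with the control enema was -0.53 and -0.22. For 1459889_at the interaction was 1.85 in set 1 and 1.31 in set 2, and the diet difference was -0.81 and -1.06. With 1 or 2 arrays per group in a set, these are values without a test. With the array set as a term in the fit, the interaction of 1416306_at was 0.70 (adjusted p = 0.139).

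Goblet cell markers were read beside Clca1. The summed signal of the 5 goblet markers on 430A was 49608 to 54021 in curcumin TNBS, 51959 to 61490.1 in standard TNBS, 49837 to 58899.5 in curcumin control and 50561.7 to 55325 in standard control colons. These ranges overlap in all 4 groups. Muc2, the gel-forming mucin, is on 430B and gave 76307, 48926.5 and 49799 in curcumin TNBS colons, against 102645.9, 74483 and 80277 in standard TNBS colons. It had 86649.7, 85795 and 70564.6 in curcumin control colons and 64968.5, 84473 and 91883 in standard control colons, and its 2 low arrays are those that stood apart. The part of goblet cell number in the Clca1 values was not tested.

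Clca4a, the enterocyte member, ran from 15699.8 to 27836 over the arrays of 430B. Probe set 1439727_at on 430B gave 23531, 15699.8 and 15901 in curcumin TNBS colons, 18556, 23095 and 27287 in standard TNBS colons, 22175, 27836 and 25425 in curcumin control colons, and 25665, 20645 and 17629.6 in standard control colons. All 4 comparisons overlapped. The means were 18377 ± 4465 for curcumin TNBS, 22979.6 ± 4367 for standard TNBS, 25145 ± 2841 for curcumin control and 21313 ± 4059 for standard control (SD, n = 3 each).

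The log2 difference of Clca4a for TNBS on the curcumin diet was -0.47 ± 0.22 (adjusted p = 0.204) and for curcumin against standard diet with TNBS -0.33 ± 0.22 (adjusted p = 0.369). The 2 low arrays of the curcumin TNBS group are those that stood apart, and without them the values were -0.09 ± 0.27 and 0.05 ± 0.27. After quantile normalization they were 0.09 and 0.15. Without curcumin TNBS replicate 1, the only array of the group that had not stood apart, the first was -0.66 ± 0.20 (adjusted p = 0.0312). With the control enema the diets differed by 0.25 ± 0.22, with a 95% interval of -0.22 to 0.72. The interaction was -0.58 ± 0.31 (adjusted p = 0.346), and with array weights -0.86 ± 0.26 (adjusted p = 0.0405). Without the 2 arrays that stood apart it was -0.20 ± 0.33 (adjusted p = 0.928).

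Clca3a1, formerly Clca1, is a member of lymphatic endothelium. Probe set 1417852_x_at on 430A gave 268.6, 258.7 and 362.1 in curcumin TNBS colons, 403.8, 295.0 and 373.4 in standard TNBS colons, 276.5, 291.0 and 320.7 in curcumin control colons, and 224.4, 296.4 and 300.8 in standard control colons. All 4 comparisons overlapped. The log2 differences were -0.01 ± 0.19 for TNBS on the curcumin diet (95% interval -0.42 to 0.40), -0.26 ± 0.19 for curcumin against standard diet with TNBS and 0.12 ± 0.19 with the control enema, and the interaction was -0.38 ± 0.27. Within the 2 array sets the TNBS difference on the curcumin diet was 0.14 and -0.18, and the diet difference with the control enema was -0.11 and 0.42, so both signs differ between sets. The second probe set, 1417853_at, under the filter, gave 16.9 to 123.5 over the 12 arrays, with overlap in every comparison. It correlated with 1417852_x_at at only r = 0.154 over these arrays. The summed signal of 5 lymphatic markers on 430A was 1844 to 2359 in curcumin TNBS, 2422 to 2715 in standard TNBS, 2072 to 2339.8 in curcumin control and 1912 to 2424 in standard control colons.

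Clca3a2, formerly Clca2 and known from the mammary gland, was low in both probe sets. Probe set 1419463_at gave 77.3 to 154.2 and 1437578_at 4.2 to 61.5 over 12 arrays each, with overlap in every comparison. A further probe set, 1460259_s_at, is annotated to Clca3a1 and Clca3a2 together, so it cannot tell them apart and is not counted as a member. It gave 224.1 to 290.6 in curcumin TNBS, 238.0 to 373.1 in standard TNBS, 211.4 to 244.2 in curcumin control and 217.4 to 275.7 in standard control colons. It followed the Clca3a1 probe set 1417852_x_at at r = 0.764 over 12 arrays and the Clca3a2 probe set 1419463_at at r = -0.10.

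Clca2, formerly Clca5, is in humans a gene of stratified epithelia. Probe set 1438109_at on 430B gave 148.1, 297.6 and 189.7 in curcumin TNBS colons, 32.2, 97.0 and 39.0 in standard TNBS colons, 30.1, 133.4 and 74.9 in curcumin control colons, and 103.8, 147.6 and 94.6 in standard control colons. The curcumin TNBS arrays were above all standard TNBS and all curcumin control arrays, with ratios of means of 3.78 and 2.67, and above all those of standard control. Of the 3 curcumin TNBS arrays, the highest are the 2 that stood apart, and the remaining one, at 148.1, was just above the highest array of the other groups, at 147.6. Clca2 was under the filter and was not tested. For comparison, 20.3% of all tested probe sets had no overlap between diets with TNBS, and 13.7% between enemas on curcumin. The summed signal of 9 squamous markers on 430A was 1806 to 2739 in curcumin TNBS, 2025 to 2558 in standard TNBS, 1689.6 to 3002 in curcumin control and 2085 to 2922 in standard control colons.

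Clca3b, formerly Clca4 and known from smooth muscle, and the pseudogene Clca4c-ps lie between members of the block but are not counted among them. Clca3b gave 998 to 1336.5 on 430A, with overlap in every comparison. Clca4c-ps, under the filter, gave 228.9, 369.7 and 269.1 in curcumin TNBS colons, 90.5, 152.1 and 185.6 in standard TNBS colons, 72.8, 8.3 and 65.8 in curcumin control colons, and 58.6, 130.0 and 51.5 in standard control colons. Clca4b, its neighbour in the block, was low in the group where Clca4c-ps was highest, and over the 12 arrays of 430B they correlated at r = -0.02. Clca4b correlated at r = 0.289 with Clca4a, the gene on its other side, and at r = -0.65 with Clca2.

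The genes most like Clca4b over the 12 arrays of 430B, by Pearson r of log2 signal among tested probe sets with 1 symbol, were Gda at 0.961, Smndc1 at 0.929, Csf2rb at 0.918, Fut2 at 0.907 and Urah at 0.904. Without the 2 arrays that stood apart the same genes had r of 0.959, 0.937, 0.954, 0.954 and 0.915. They share the arrays, and the group means alone can carry such values. Fut2, a fucosyltransferase of mucosal surfaces, gave 2793.5, 1624 and 1432 in curcumin TNBS colons, 11754, 6473 and 8781 in standard TNBS colons, 2579.8, 3405 and 6582 in curcumin control colons, and 2821, 2870.3 and 1970.6 in standard control colons. Its highest curcumin control array was replicate 3 and its lowest standard TNBS array replicate 2, as in Clca4b. Gda, guanine deaminase, gave 6194, 6370.5 and 6652 in curcumin TNBS colons, 14888, 11621 and 14651 in standard TNBS colons, 7264, 6088 and 11070.8 in curcumin control colons, and 6258, 5646 and 7209.8 in standard control colons. Csf2rb, the common beta subunit of cytokine receptors, gave 2874, 2375 and 3199.6 in standard TNBS colons, and 1607.5 in curcumin control replicate 3.

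**Figure D3:**
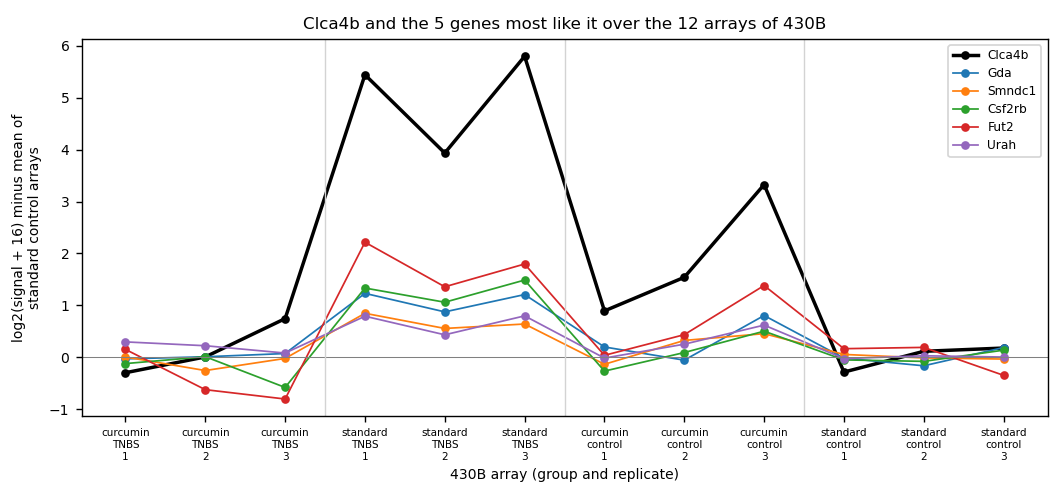
Clca4b and the 5 genes most like it over the 12 arrays of 430B, as log2(signal + 16) minus the mean of the 3 standard control arrays of that gene; arrays run by group and replicate. Clca4b has the widest swing of the 6, and each of the 6 is higher in curcumin control replicate 3 than in replicates 1 and 2.

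For Clca4a the genes most alike were Depdc1b (r = 0.951), Ctnnd1 (0.924), Riok3 (0.911), Stk38l (0.899) and Hp1bp3 (0.898). Without the 2 arrays that stood apart these r were between 0.783 and 0.900. For Clca1 they were Ddx60 (r = 0.905), Svil (0.900), Ndrg3 (0.894), Tsc22d1 (0.892) and Psd (0.891), over the 12 arrays of 430A.

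Clca4b was set beside 3 other readouts of the same numbered samples, of which Lcn2 and Retnlb were chosen after their values were seen. Lcn2, lipocalin 2 of neutrophils and stressed epithelium, gave 134.5, 123.0 and 159.0 in curcumin TNBS, 6003, 2957 and 5714 in standard TNBS, 82.1, 101.1 and 710.1 in curcumin control, and 56.9, 114.4 and 72.8 in standard control colons. Retnlb, a goblet cell protein that is induced by microbes and by type 2 cytokines, gave 4243.5, 3395 and 2309 in curcumin TNBS, 11043.5, 7286 and 7743 in standard TNBS, 1805, 2152 and 7159 in curcumin control, and 2774, 1908 and 2053 in standard control colons. Curcumin control replicate 3, the array with the highest Clca4b outside standard TNBS, was also the highest of its group in Lcn2 and Retnlb. Standard TNBS replicate 2, the lowest of its group in Clca4b, was the lowest in both.

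The summed signal of 6 neutrophil markers was 597.9 to 1243 in curcumin TNBS, 3982 to 7738 in standard TNBS, 769.3 to 969.2 in curcumin control and 738.1 to 829.6 in standard control colons, with 0 markers at 0. Curcumin control replicate 3, at 874.0, lay between the other 2 arrays of its group. In curcumin TNBS, standard TNBS and standard control colons the replicates came in the same order in this sum as in Clca4b. Standard TNBS replicate 2, the lowest of its group in Clca4b, was again the lowest, at 3982. The summed signal of 7 pancreatic acinar markers varied within every group, from 801.0 to 79100.4 in curcumin TNBS, 40397 to 103340.2 in standard TNBS, 678.2 to 47377 in curcumin control and 651.3 to 98365 in standard control colons. Curcumin control replicate 3 had the 47377, against 1072 and 678.2 in replicates 1 and 2. In standard TNBS the replicates gave 85946.2, 40397 and 103340.2, the same order as in Clca4b, and in the other groups the order differed. Curcumin TNBS replicate 1 and standard control replicate 2, at 79100.4 and 98365, had Clca4b at 214.3 and 290.6. The part of neutrophils or pancreatic tissue in the Clca4b values was not tested.

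**Figure D4:**
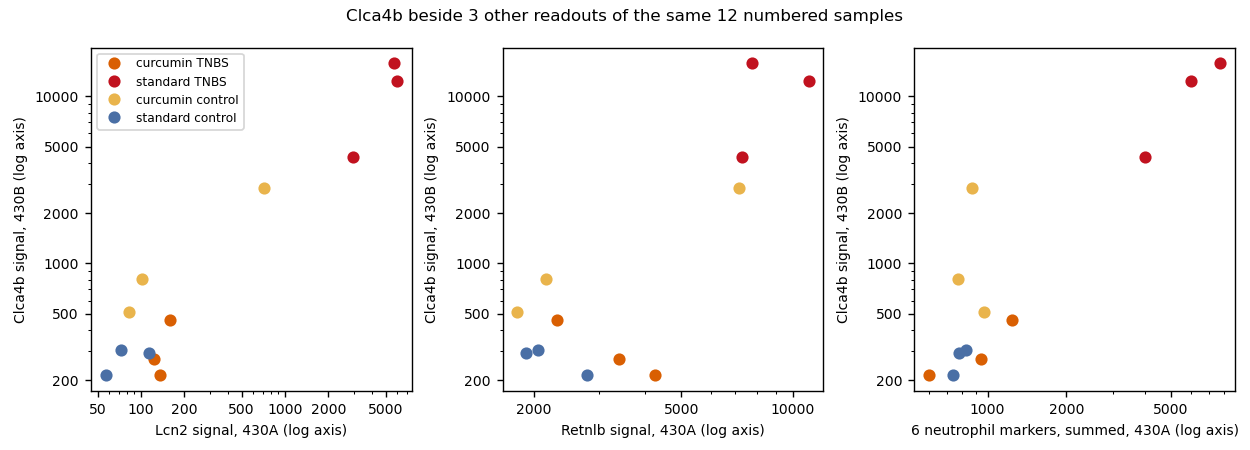
Clca4b signal (430B, vertical log axis) against Lcn2, Retnlb and the sum of 6 neutrophil markers (430A, horizontal log axes), 1 point for each of the 12 numbered samples, coloured by group. Standard TNBS samples lie at the upper right in each panel, and the curcumin control sample at a Clca4b signal of 2830.0 lies near them for Retnlb but at 874.0 for the neutrophil sum.

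Of the other genes of anion secretion, 1 passed the test, in 1 of the 5 comparisons. Of 23 genes listed, 22 are on the arrays and 21 were tested. With curcumin against standard diet and TNBS, 0 rose and 1 fell, and the median log2 difference was 0.15, against 0.01 over all tested probe sets of 430A and 0.03 over those of 430B. Over all probe sets tested 0.805% passed in this comparison, and on 430B 214 of 13506. At an unadjusted p under 0.05 there were 7 of the 21, against 16.9% of all probe sets tested (10.2% on 430A and 23.6% on 430B). The gene that fell was Ano6, a calcium-activated scramblase and channel, with 1472.9, 1341.9 and 1162 in curcumin TNBS colons, against 2598.6, 2454 and 2351.6 in standard TNBS colons (-0.89 ± 0.16, adjusted p = 0.0245). Without the 2 arrays that stood apart it was -0.74 ± 0.22 (adjusted p = 0.533), and its second probe set gave -0.61 ± 0.19 (adjusted p = 0.0883). In the other comparisons the list's median lay between -0.12 and 0.11, and limma called 0 of the 21, with 6 at an unadjusted p under 0.05 for TNBS on the standard diet, 3 for TNBS on curcumin, 1 between diets with the control enema and 6 in the interaction. The shares of all probe sets tested at that level were 7.27% for TNBS on the standard diet and 13.3% for TNBS on curcumin. They were 3.61% between diets with the control enema and 13.5% in the interaction. These shares pool the array types. For TNBS on curcumin 430A had 2.75% and 430B 24%, and in the interaction 9.92% and 17.1%. Most of the 21 genes are on 430A, but the 3 for TNBS on curcumin, Ano6, Ano9 and Slc9a3, are on 430B.

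Ano1, the calcium-activated chloride channel itself, gave 605.6 to 653.6 in curcumin TNBS, 279.0 to 811.9 in standard TNBS, 499.4 to 744.3 in curcumin control and 543.1 to 751.0 in standard control colons. Cftr, the cyclic AMP-regulated chloride channel, gave 1258 to 1389.5 in curcumin TNBS, 921.1 to 1264 in standard TNBS, 1142 to 1518 in curcumin control and 1229 to 1559.7 in standard control colons. Slc12a2, the basolateral chloride importer, differed by 0.39 ± 0.11 between curcumin and standard diet with TNBS (adjusted p = 0.243), and Slc26a3, the chloride-bicarbonate exchanger of the surface, by 0.44 ± 0.13 (adjusted p = 0.251). For Kcnn4, a calcium-activated potassium channel, this difference was 0.12 ± 0.24.

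Of 17 mucus and goblet genes, all tested, limma called 0 in any comparison. At an unadjusted p under 0.05 there were 5 for TNBS on the standard diet, 2 for TNBS on curcumin, 6 between diets with TNBS, 3 between diets with the control enema and 5 in the interaction. Over all probe sets tested 16.9% reached that level between diets with TNBS, and the other shares are those given for anion secretion. The share of 13.3% for TNBS on curcumin pools 2.75% on 430A with 24% on 430B, and that of 16.9% pools 10.2% with 23.6%. Most of the 17 genes are on 430A. The 2 for TNBS on curcumin were Itln1 on 430A and Ang4 on 430B. Their median was -0.32 for curcumin against standard diet with TNBS and between -0.10 and 0.09 in the others. Retnlb differed by -1.40 ± 0.42 between diets with TNBS (adjusted p = 0.245), Muc2 by -0.57 ± 0.27 (adjusted p = 0.208), Fcgbp by -0.14 ± 0.18, Zg16 by -0.13 ± 0.11 and Klf4 by 0.00 ± 0.14. Muc2 is on 430B, where 2 of its 3 curcumin TNBS arrays stood apart.

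Interleukin 13 is known to induce Clca1 in airway goblet cells. Of 13 genes listed around it, 7 were tested and limma called 0, with 1 at an unadjusted p under 0.05 between diets with the control enema, where 3.61% of all probe sets were, and 0 in the other comparisons. Il13 itself, under the filter, gave 16.1 to 31.0 in curcumin TNBS, 23.8 to 25.9 in standard TNBS, 14.4 to 31.3 in curcumin control and 15.6 to 45.3 in standard control colons. Il4ra, a subunit of its receptor, differed by -0.26 ± 0.37 between diets with TNBS, and Retnla, a type 2 cytokine target, by 0.08 ± 0.24. Sh3glb1, a neighbour of the Clca block, gave 2502 to 3299.7 over the 12 arrays of 430A, and its TNBS difference on the standard diet was 0.07 ± 0.12.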

How the data were processed

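The deposited values are linear signal intensities, 1 per probe set and array. Per the submitters' processing notes, GCOS was used (version not given in the sources used here). The 2% trimmed mean of the deposited intensity ranged over 500.1 to 500.2 for 430A arrays and 500.0 to 500.1 for 430B arrays, so the arrays had been scaled, and they were used as deposited. Detection calls were not used, and the number of arrays limits the precision. Member probe sets were found by symbol in the platform annotation, in which 20380 of 22626 probe sets on 430A and 14661 of 22511 on 430B have 1 symbol. It names Clca4b for 1439796_at without an accession.

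Signals plus a pseudocount of 16 were log2-transformed, and probe sets above the 40th percentile of mean log2 signal were kept (13575 on 430A, 13506 on 430B). The 2 array types were fitted separately, with 4 group means over 12 arrays, in limma 3.58.1 (R 4.3.3, lmFit and eBayes with an intensity trend, 8 residual degrees of freedom), and fold changes are on the log2(signal + 16) scale. P-values are two-sided and Benjamini-Hochberg adjusted over an array type, with a threshold of 0.05. The fit was tested on simulated data. Alternatives were pseudocounts of 1 and 64, no filter or the 60th percentile, quantile normalization, no intensity trend, array weights, only the groups compared, each sample left out, the 2 arrays that stood apart left out, the 430A array set as a term, and a gene's other probe set.

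Named are all members, the 5 genes most like Clca1, Clca4a and Clca4b by r, and fixed examples of 3 pathway lists. Ano6, Lcn2, Sh3glb1 and Retnlb beside Clca4b were picked by other means or after values were seen. The members and all lists were chosen with earlier results of these data known. Promoter bases are from RefSeq, GRCm38.p6; no genome was used.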

Additional observations from a re-analysis of the deposited data

Results flagged for a closer look

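The TNBS difference of Clca4b went opposite ways on the 2 diets. On the curcumin diet every TNBS array was below every control array, a lack of overlap that 13.7% of all tested probe sets had. This difference, -1.77, did not pass (limma, adjusted p = 0.0941), and it ran from -2.28 to -1.07 when 1 sample was left out. On the standard diet, the difference that chose the family, every TNBS array was above every control array, and 14.5% of all tested probe sets had no overlap. The difference of the log2 differences, curcumin minus standard, was -6.83. It rests in part on the standard TNBS and standard control arrays that chose the family, so it is given as a value. Across the 12 runs that left out 1 sample it lay between -7.39 and -6.13.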

How the results depend on the processing

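Array weights moved the count of member probe sets past the threshold to 2 for TNBS on the curcumin diet (0 in the report) and to 3 in the interaction (1 in the report). Leaving out 1 sample gave 0 to 1 for TNBS on curcumin, with the 1 reached without curcumin control replicate 1 (Clca4b) and without curcumin TNBS replicate 1 (Clca4a). Signs changed for Clca3a1 and Clca4a. Over the leave-one-out runs Clca3a1 ran from -0.16 to 0.074 for TNBS on curcumin and from -0.014 to 0.18 between diets with the control enema, and Clca4a from -0.025 to 0.25 for TNBS on the standard diet. Quantile normalization turned Clca4a to 0.087 for TNBS on curcumin, 0.15 between diets with TNBS and 0.023 in the interaction, and leaving out the 2 arrays that stood apart turned it to 0.052 between diets with TNBS; the cause was not tested. Clca1 in 1459889_at was at -0.74 for TNBS on the standard diet. In all, those named included, 378 values of single probe sets stayed the same, 10 changed sign, 6 passed newly and 1 moved. The same meant an unchanged direction and side of the threshold. For TNBS on the standard diet, which has no test, it meant an unchanged direction and a shift below the within-group SD. Of the counts, taken with the Clca4b difference for TNBS on the standard diet, which chose the family, 104 stayed and 4 moved. Clca4b kept its sign in all 5 comparisons in every leave-one-out run, from 4.69 to 5.62 for TNBS on the standard diet, -2.28 to -1.07 for TNBS on curcumin, -5.47 to -4.54 between diets with TNBS and 1.22 to 2.43 with the control enema. Except for TNBS on curcumin, these comparisons use standard TNBS or standard control arrays, which chose the family. Their kept signs are therefore not independent of that choice. No paired analysis was possible because the labels give the groups no shared replicate numbers. The 95% interval of Clca4b for TNBS on the curcumin diet, -2.91 to -0.63, shows the precision that 3 arrays a group allow.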
